A study of Homo sapiens with 5 samples.

Results

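The miR-23, miR-24 and miR-27 families were read by 5 of the 654 human miRNA probes of the panel, hsa-miR-23a, hsa-miR-23b, hsa-miR-24, hsa-miR-27a and hsa-miR-27b. They were taken by name from the human probe class, a rule that itself uses no measured value. Total RNA, 100 ng for each sample, was profiled with the nCounter miRNA assay, in which each mature miRNA is joined to a specific tag and tagged molecules are counted one by one through a color-coded probe. The lines were Meg-01, a megakaryoblastic line, Jurkat, a T-cell lymphoblastic line, Raji, a B-cell lymphoblastic line, U937, a monocytic line, and K562, an erythroleukemia line. Trizol was used to extract the RNA of all lines, and the samples carry no treatment. Each is a transformed culture grown from 1 patient's disease, so it stands for that line and not for a normal lineage. Each line had 1 sample, so no difference between lines could be tested. All intervals are 95% exact intervals and cover counting error only, not the spread between cultures, RNA preparations or assay lanes.

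These miRNAs are made from a pair of paralogous clusters, each of which encodes a miR-23, a miR-27 and a miR-24 hairpin on 1 primary transcript. The mature miR-24 of both clusters is the same molecule, whereas miR-23 and miR-27 exist as an a form and a b form. miR-23 is known as a repressor of glutaminase and is itself held down by MYC, miR-27 is known to target the transcription factor RUNX1, and the miR-23a cluster is known in mouse blood progenitors for favoring myeloid over B-cell development. In the RefSeq annotation of GRCh38.p14 the a cluster lies on the minus strand at chr19:13836287-13836659, inside the long non-coding RNA gene MIR23AHG. The b cluster lies on the plus strand at chr9:95085208-95086088, inside the protein-coding gene AOPEP, where the MIR3074 hairpin overlaps that of miR-24.

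All 5 probe names matched a RefSeq entry of the GRCh38.p14 table, taken as the 3p arm because the probes carry no arm. The mature sequences are shown because the a and b probes have to tell near-identical molecules apart, with the seed, bases 2 to 8 from the 5′ end, in capitals.
hsa-miR-23a: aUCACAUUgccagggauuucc
hsa-miR-23b: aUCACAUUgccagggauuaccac
hsa-miR-27a: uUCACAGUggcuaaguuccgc
hsa-miR-27b: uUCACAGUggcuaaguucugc
hsa-miR-24: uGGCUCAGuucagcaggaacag
Counted from 1 at the 5′ end of the a form, miR-23a and miR-23b differed by U19A, and miR-23b had 2 more bases at its 3′ end. miR-27a and miR-27b differed by C19U. In both families 20 of the 21 compared bases were identical, 95.2%, and the seed was shared. The miR-23 and miR-27 seeds had the same base at 6 of their 7 positions, and the miR-24 seed matched the miR-27 seed at none. A count of an a probe may therefore hold some b molecules and the reverse, which was not tested.

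The human probes gave 66892 to 130048 raw counts per line, fewest in Raji and most in Jurkat. A probe was called above background when its raw count passed a threshold set from the 8 negative controls of its line (their mean with 2 SD added), 34.6 to 45.9 counts. For comparison between lines, the counts of each line were multiplied by a factor that equalized the geometric means of the same 100 high human probes, from 0.741 in Meg-01 to 1.58 in Raji, so that the scaled threshold was 72.4 in Raji and 28.2 to 42.3 elsewhere. Another scaling moves all probes together by up to 1.10 on the log2 scale between a pair of lines (Raji against K562, with the housekeeping probes), but cancels in the shares and ratios within a line. Of 7 miRNAs taken as lineage markers all were above background in their own line, and 4 were highest there (miR-223 in U937, miR-150 and miR-181a in Jurkat, miR-155 in Raji). miR-126, taken for Meg-01, was highest in K562, and miR-451 and miR-144, taken for K562, were highest in Meg-01. The highest line held under all 7 scalings tried for miR-150 and miR-144 only. miR-181a was highest in Jurkat under 6 of them, miR-223 in U937 and miR-155 in Raji under 5, and miR-126 in Meg-01 under 3. Of 34 probes for miRNAs of the Epstein-Barr virus, which Raji carries, 16 were above background in Raji and 5 to 9 in each other line. Viral probes thus passed the threshold in all lines, and passing it does not by itself show that a miRNA was present.

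Detection of the 5 probes differed between lines. All 5 were above background in Meg-01 and in U937, where 27.2% and 28.3% of all human probes were. In Jurkat and in K562 4 of the 5 were above background, against 35.0% and 27.5% of all human probes, and miR-27a was the one below it. In Raji only miR-27b was above background, against 17.0% of all human probes. Together the 5 probes took 2.03% of the human counts in Meg-01 and 1.99% in U937, but 0.839% in K562, 0.561% in Jurkat and 0.489% in Raji. Their summed scaled count was 1955 in U937, 1651 in Meg-01, 1079.9 in K562, 587 in Jurkat and 516 in Raji. The sum was thus 3.79-fold higher in U937 than in Raji (3.37 to 4.27), and between 3.79-fold and 7.75-fold higher over the 7 scalings tried, no scaling included. Jurkat and Raji were 1.14-fold apart (0.997 to 1.30), but 2.24-fold apart with the housekeeping probes, and 6 of the 7 scalings put them apart beyond counting error. U937 was 1.18-fold above Meg-01 (1.11 to 1.26), which turned around to 0.841-fold without scaling, so no order is given for these 2 lines.

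miR-23a, the a form of the miR-23 family, had raw counts of 701 in U937, 597 in Meg-01, 165 in K562, 90 in Jurkat and 25 in Raji. Its scaled counts were 731, 443, 202, 72.5 and 39.5 in the same order. U937 and Meg-01 were high, K562 was intermediate, Jurkat was low, and Raji was below the background threshold. The neighbors above background differed beyond counting error, by 1.65-fold from U937 to Meg-01 (1.48 to 1.85), 2.19-fold from Meg-01 to K562 (1.84 to 2.62) and 2.78-fold from K562 to Jurkat (2.14 to 3.64). Over the 7 scalings these folds ran from 1.17 to 2.20, from 1.58 to 3.62 and from 1.83 to 3.03. No fold is given from Jurkat to Raji, because the scaled Jurkat count of 72.5 stood at the scaled threshold of Raji, 72.4. From U937 to Raji the count was 18.5-fold higher before background subtraction (12.4 to 28.8), and 37.9-fold higher with the housekeeping probes. Because the Raji count was below background, this fold has no settled size. It was 239.7 with the mean of the negative controls subtracted and 239.1 with the deposited signals, and with the threshold subtracted, and Raji set at its threshold, U937 was at least 9.60-fold higher. Among the human probes miR-23a held place 19 by count in U937, place 23 in Meg-01 and place 85 in Jurkat. The order of the lines was the same under all 7 scalings tried.

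miR-24, the product of both clusters, had raw counts of 1063 in Meg-01, 663 in U937, 196 in K562, 130 in Jurkat and 27 in Raji. The scaled counts were 788, 692, 239.7, 105 and 42.6. Meg-01 and U937 were again high and Raji was below background, so that miR-24 ran alongside miR-23a apart from the exchange of the top lines. Meg-01 was 1.14-fold higher than U937 (1.03 to 1.26), which the scaling to housekeeping probes turned around. U937 was 2.89-fold higher than K562 (2.46 to 3.40), and K562 was 2.29-fold higher than Jurkat (1.82 to 2.88), the former reaching 4.57-fold with the positive controls and the latter 1.51-fold without scaling. Meg-01 exceeded Raji 18.5-fold before subtraction (12.6 to 28.2) and 39.4-fold without scaling. With Raji below background this size is not settled either, being 126 with the mean of the negative controls subtracted or with the deposited signals, and at least 10.5 with the threshold subtracted and Raji set at its threshold. miR-24 was the member with the highest count in Meg-01, at place 17 among human probes.

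miR-27a, the a form of the miR-27 family, had raw counts of 90 in Meg-01, 76 in U937, 24 in K562, 12 in Raji and 10 in Jurkat. Its scaled counts were 79.3 in U937, 66.7 in Meg-01, 29.4 in K562, 18.9 in Raji and 8.05 in Jurkat. It was above background only in U937 and Meg-01, which did not differ beyond counting error (1.19-fold, 0.864 to 1.63) except with the housekeeping probes, which gave 1.58-fold, while the interval of the K562 count included the threshold. U937 was 9.85-fold higher than Jurkat before subtraction (5.07 to 21.4). The Jurkat count was below its threshold. With the threshold subtracted, and Jurkat set at its threshold, U937 was at least 1.52-fold higher. No order among K562, Raji and Jurkat is given, as all 3 counts were below background.

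miR-27b, the b form of the miR-27 family, had raw counts of 463 in K562, 431 in Jurkat, 423 in Meg-01, 397 in U937 and 232 in Raji. Its scaled counts were 566 in K562, 414 in U937, 366 in Raji, 347 in Jurkat and 314 in Meg-01. It was the only member well above background in all lines, with no line standing as low as Raji did for miR-23a and miR-24. K562 was 1.37-fold higher than U937 (1.19 to 1.57) and 1.81-fold higher than Meg-01 (1.58 to 2.06). The former turned around to 0.863-fold with the positive controls (0.753 to 0.990), and the latter came to 1.09-fold without scaling. The neighbors U937 and Raji, Raji and Jurkat, and Jurkat and Meg-01 did not differ beyond counting error with the scaling used here, but did under 6, 3 and 2 of the 7 scalings. This narrow range depended on the scaling, since the highest line exceeded the lowest by 1.33-fold with scaling to total human counts and by 3.31-fold with the housekeeping probes, the latter with Raji lowest. Of the 88 human probes above background in all lines (13.5% of the panel), 6 had a smaller spread than miR-27b with the scaling used here, 0 with total human counts and 46 with the housekeeping probes.

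miR-23b, the b form of the miR-23 family, had raw counts of 68 in Jurkat, 54 in Meg-01, 37 in U937, 35 in K562 and 31 in Raji. The scaled counts were 54.8 in Jurkat, 48.9 in Raji, 42.8 in K562, 40.0 in Meg-01 and 38.6 in U937. Only the Jurkat count was above background with its whole interval, and the intervals in Meg-01, U937 and K562 included the threshold. No pair of lines differed beyond counting error with the scaling used here, the widest gap being 1.42-fold between Jurkat and U937 (0.937 to 2.18). Under the other scalings 0 to 4 of the 10 pairs did, and the widest gap was 2.20-fold, between Jurkat and Raji with the housekeeping probes. With the threshold subtracted Jurkat was 12.0-fold above U937, where 2.22 scaled counts were left, and with the deposited signals 2.48-fold. Whether miR-23b differs between the lines therefore could not be settled at these counts.

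**Figure D1:**
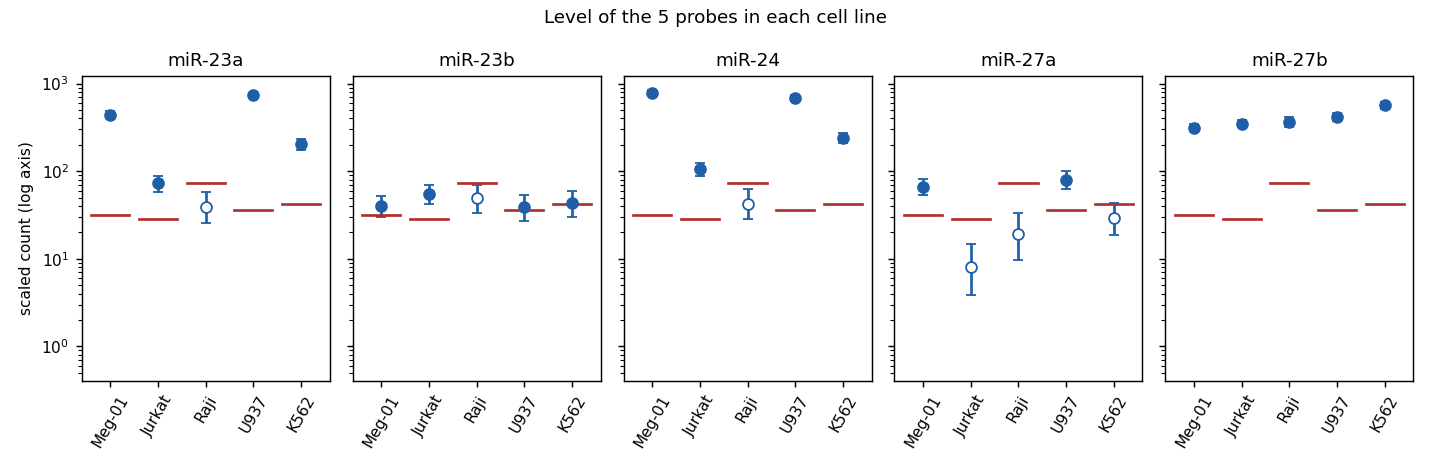
Scaled count on a log axis for each of the 5 probes in the 5 cell lines, with bars for the 95% exact Poisson interval, red lines for the scaled background threshold of the line, and open points for counts below it. miR-23a and miR-24 stand high in Meg-01 and U937 and below the threshold in Raji, whereas miR-27b stays between 314 and 566.

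The a to b balance was read within each line as the share of the a probe in the raw counts of both paralogs. The level of a share, and its change between lines in percentage points, include the capture of both probes, which need not be equal. That capture cancels in the fold between lines of the a to b ratio, as long as background is small. miR-23a made up 95.0% of the miR-23 counts in U937 (93.2 to 96.4), 91.7% in Meg-01 (89.3 to 93.7), 82.5% in K562 (76.5 to 87.5) and 57.0% in Jurkat (48.9 to 64.8). In Raji both miR-23 probes were below background, and their share of 44.6% is a share of background counts. The a form thus gave most of the counts in U937, Meg-01 and K562, and in Jurkat the interval of its share included equal counts. The ratio of miR-23a to miR-23b was 14.3-fold higher in U937 than in Jurkat (8.85 to 23.2), 8.35-fold higher in Meg-01 than in Jurkat (5.36 to 13.0) and 3.56-fold higher in K562 than in Jurkat (2.14 to 5.95). U937 and Meg-01 were closest, at 1.71-fold (1.09 to 2.72). The sizes of these folds rest on miR-23b counts near background, and their intervals leave the subtraction out. Over the 4 ways of subtracting background, the ratio against Jurkat ran from 28.4-fold to 188-fold higher in U937, from 11.5-fold to 35.0-fold higher in Meg-01 and from 6.60-fold to 207-fold higher in K562. Between U937 and Jurkat, miR-23a was 10.1-fold higher in U937 (8.09 to 12.7), whereas miR-23b was 1.42-fold higher in Jurkat (0.937 to 2.18). With the threshold subtracted the share was 97.9% in Meg-01, 99.7% in U937, 99.7% in K562 and 62.5% in Jurkat, so that Jurkat stayed lowest and the order of the other lines was lost.

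The miR-27 family had the reverse balance. miR-27a made up 17.5% of the miR-27 counts in Meg-01 (14.4 to 21.1) and 16.1% in U937 (12.9 to 19.7), which did not differ beyond counting error (odds 1.11-fold apart, 0.785 to 1.58). The share was 4.93% in K562 (3.18 to 7.24), 4.92% in Raji (2.57 to 8.43) and 2.27% in Jurkat (1.09 to 4.13), each with miR-27a below background, so that these shares hold background counts. The b form therefore took most of the miR-27 counts in all 5 lines, and the a form was seen only in the lines where miR-23a and miR-24 were highest. Subtracting the threshold lowered the shares to 11.2% in Meg-01 and 10.2% in U937.

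**Figure D2:**
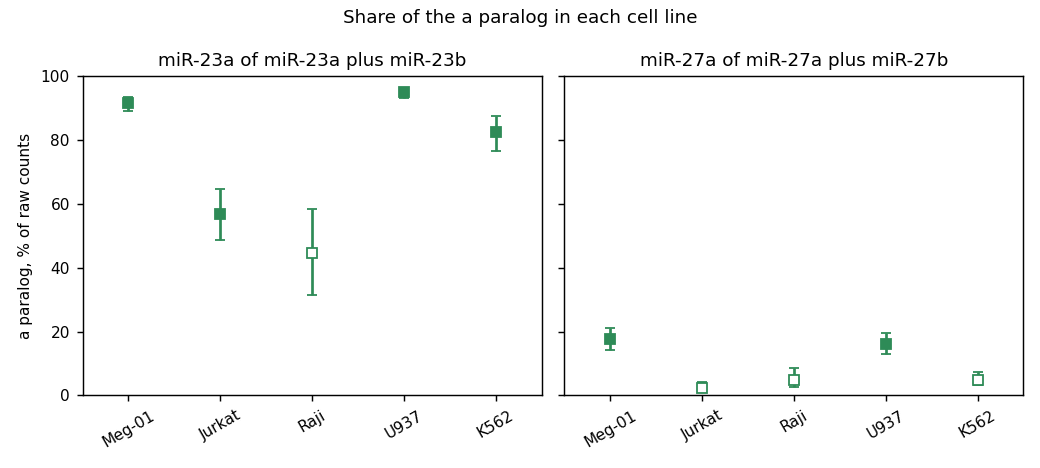
Share of the a paralog in the raw counts of a plus b, in percent, for miR-23 and miR-27 in the 5 cell lines, with 95% exact binomial intervals and open points where the a probe was below background. The miR-23a share runs from 57.0% in Jurkat to 95.0% in U937 among lines with signal, and the miR-27a share stays at or below 17.5%.

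Since miR-24 comes from both clusters, it was set against the summed paralogs of each family. The miR-23 sum over miR-24 was 1.22 in Jurkat, 1.11 in U937, 1.02 in K562 and 0.612 in Meg-01. Jurkat, U937 and K562 did not differ beyond counting error, and Meg-01 was lower, U937 being 1.82-fold above it (1.57 to 2.10). The value in Raji, 2.07, rests on probes below background. With the threshold subtracted the ratio was 1.06 in U937, 0.926 in Jurkat, 0.810 in K562 and 0.555 in Meg-01, so that Meg-01 stayed lowest while Jurkat and K562 passed below 1 and Jurkat was no longer highest. Over the 4 lines with signal this ratio ranged 1.98-fold (1.53 to 2.57), while miR-24 itself ranged 7.53-fold (6.27 to 9.10).

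The miR-27 sum over miR-24 moved further. It was 0.483 in Meg-01 and 0.713 in U937, so that miR-24 gave more counts than miR-27 there, but 2.48 in K562 and 3.39 in Jurkat. In Raji it was 9.04 (6.06 to 14.0), with miR-24 below background. Jurkat exceeded Meg-01 by 7.03-fold (5.60 to 8.85) and K562 exceeded Meg-01 by 5.15-fold (4.21 to 6.30). The miR-23 sum over the miR-27 sum split the lines in the same way. It was 1.56 in U937 and 1.27 in Meg-01, and 0.411 in K562, 0.358 in Jurkat and 0.230 in Raji, the last with both miR-23 probes below background, and the Jurkat value was 0.222 with the threshold subtracted. K562 and Jurkat did not differ beyond counting error (1.15-fold, 0.890 to 1.48), and U937 was 4.35-fold above Jurkat (3.49 to 5.44).

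Ratios between members of the same cluster leave miR-24 aside. miR-23a over miR-27a was 6.63 in Meg-01 (5.31 to 8.37) and 9.22 in U937 (7.27 to 11.8), a difference of 1.39-fold (0.993 to 1.95) that did not pass counting error. With the threshold subtracted the ratio was 11.6 in Meg-01 and 16.2 in U937. It was 6.88 in K562 and 9.00 in Jurkat before subtraction, where miR-27a was below background. miR-23b over miR-27b was 0.158 in Jurkat, 0.134 in Raji, 0.128 in Meg-01, 0.0932 in U937 and 0.0756 in K562, with more counts of the miR-27b probe in all lines and miR-23b below background in Raji. With the threshold subtracted the ratio fell to 0.0833 in Jurkat, 0.0312 in Meg-01, 0.00588 in U937 and 0.000881 in K562, so its size rests on the few miR-23b counts over background. Of the paralogs made from the b cluster, then, the miR-27 probe gave most of the counts, and of those made from the a cluster the miR-23 probe did. The size of each ratio includes the capture of both probes, which was not measured.

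**Figure D3:**
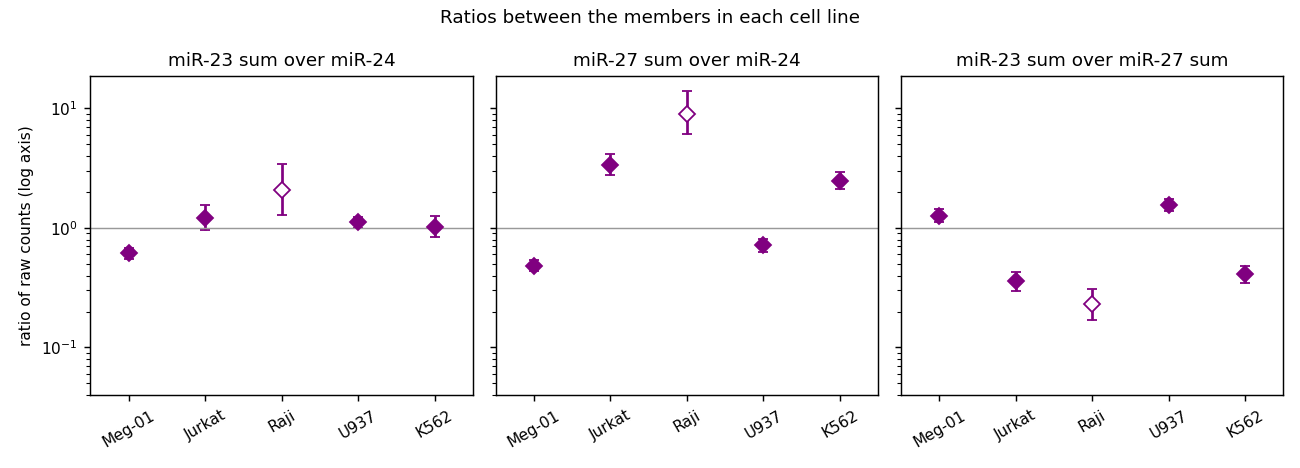
Ratios of raw counts on log axes in the 5 cell lines, with 95% exact intervals, a grey line at 1 and open points where a term was below background. The miR-23 sum over miR-24 lies between 0.612 and 1.22 outside Raji, whereas the ratios with the miR-27 sum separate Meg-01 and U937 from Jurkat, Raji and K562.

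The members were then read against the panel over the 10 pairs of lines. A probe entered a pair when it was above background in at least 1 of both lines, with a count under the threshold set at the threshold, and it was called when the scaled counts were over 2-fold apart. Members were called in 18 of their 47 entries, 38.3%, beside 28.5% of the 2278 entries of all human probes. miR-23a and miR-24 gave 8 calls each and miR-27a gave 2, whereas miR-23b and miR-27b gave none. Other scalings gave 7 or 8 calls for miR-23a, 7 to 9 for miR-24, 2 to 5 for miR-27a, 0 or 1 for miR-23b and 0 to 3 for miR-27b, the 3 with the housekeeping probes. Without filter and floor miR-27a gave 8. With Raji left out, 12 of 29 entries of members were called, 41.4%, beside 23.2% for all human probes.

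The called members lay on the side of the same lines. miR-23a, miR-24 and miR-27a were over 2-fold higher in Meg-01 than in Jurkat, as were 15.8% of all human probes, and in U937 than in Jurkat, as were 6.54%. For miR-27a both calls set Jurkat at its threshold and subtracted nothing from the higher line. With the threshold subtracted from the higher line, its bounds over Jurkat were only 1.26-fold in Meg-01 and 1.52-fold in U937. miR-23a and miR-24 were over 2-fold higher in Meg-01 than in Raji (12.5% of all human probes) and in U937 than in Raji (5.18%). The same pair was over 2-fold higher in Meg-01 than in K562 (12.4%), in U937 than in K562 (9.61%), in K562 than in Jurkat (15.2%) and in K562 than in Raji (14.1%). In the remaining directions no member was called. These included Raji over Meg-01 and Raji over Jurkat, where 38.5% and 44.0% of the human probes tested were called, Raji over K562 (15.1%), Raji over U937 (14.0%) and Jurkat over Raji (6.84%). They also included Jurkat over Meg-01 (10.9%), Jurkat over K562 (10.1%) and Jurkat over U937 (6.54%), K562 over Meg-01 (17.3%) and K562 over U937 (11.8%), and Meg-01 and U937 against each other (13.4% higher in Meg-01 and 9.96% higher in U937). Comparisons that share a line share its counts, so these calls do not count as separate evidence. The floor at the Raji threshold, the highest of the 5 once scaled, holds down the folds against Raji and also makes calls of its own. Of the 233 calls in which Raji was the higher line, 94 were of probes below background in Raji, 71 of them against Jurkat and 23 against Meg-01. With the higher line required to be above its own threshold, 32 probes were called over Jurkat (13.7%) and 51 over Meg-01 (26.6%), all human probes together were called in 24.4% of their entries, and the members kept 18 calls.

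The nearest patterns across the 5 lines were found among human probes above background in at least 3 lines, by the root mean square difference of log2 scaled counts, floored at the threshold and centered on each probe. miR-23a and miR-24 were nearest to each other of 156 candidates, at 0.34 on the log2 scale. Next to both came miR-1246, at 0.81 from miR-23a and 0.58 from miR-24, then the probe for miR-199a-3p and miR-199b-3p for miR-23a (0.85) and miR-221 for miR-24 (0.84). miR-27b lay nearest to miR-92b (0.16), miR-92a (0.18) and miR-26a (0.21), and miR-23b to miR-186 (0.14), miR-548b-3p (0.14) and miR-454 (0.19). For miR-27a, above background in only 2 lines, the nearest were the miR-199a-3p and miR-199b-3p probe (0.33), miR-30b (0.43) and miR-494 (0.44). Counts below background enter this measure at the threshold, which sets Raji as the highest line of miR-23b, where it was not detected. With Raji left out, miR-23a and miR-24 were still nearest to each other, at 0.34 among 150 candidates. The next nearest to miR-23a were then miR-155 (0.44) and the miR-199a-3p and miR-199b-3p probe (0.46), and to miR-24 the latter probe (0.52) and miR-223 (0.55), in place of miR-1246 and miR-221. The 3 probes nearest to miR-27b were miR-708 (0.04), miR-651 (0.05) and miR-206 (0.05), none of them among the 3 above, and the probe nearest to miR-23b was miR-106b (0.10). These are descriptions over 5 samples, and a flat pattern near background is close to all other such patterns.

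The change in the miR-23 balance was set beside 10 further pairs of probes named a and b that were both above background in at least 3 lines. Over the lines where both probes were above background, the log2 ratio of miR-23a to miR-23b ran from 0.40 in Jurkat to 4.24 in U937, a spread of 3.84. The median spread of the 11 pairs was 1.28 and the smallest 0.46, for miR-92a and miR-92b. None of the 11 pairs had a larger spread than miR-23. The miR-27 pair could be read in only 2 lines, with a spread of 0.15, and was not counted among the 11. In 3 of the 4 lines used, the miR-23b interval included the threshold, so its part in the ratio is loosely held.

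**Figure D4:**
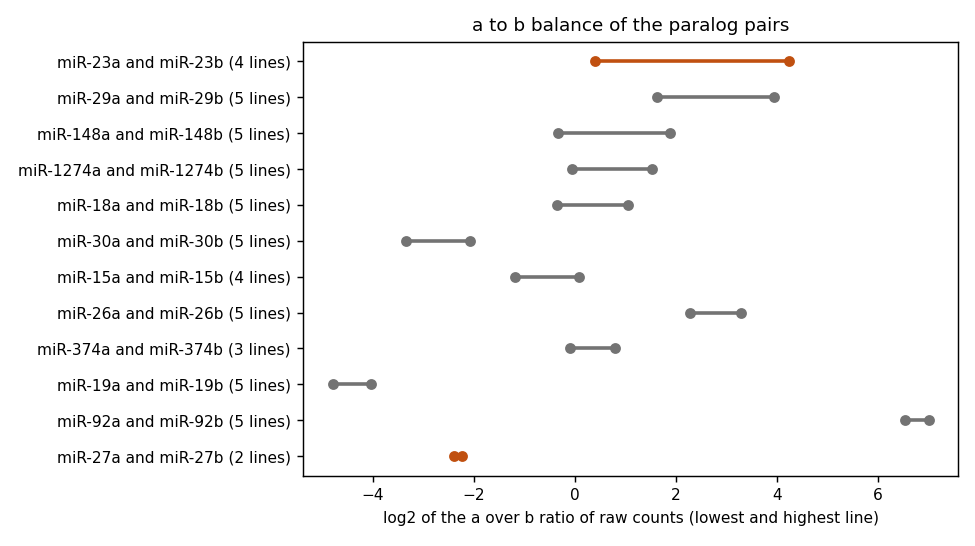
Lowest and highest log2 ratio of a to b raw counts over the lines where both probes were above background, for pairs of probes named a and b, with the number of such lines in brackets. The miR-23 pair spans 3.84 on the log2 scale, more than the other pairs shown, and the miR-27 pair spans 0.15 over 2 lines.

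One further miRNA carries part of the miR-27 seed. The seed of miR-128 equals that of miR-27 shifted by 1 base, with 6 bases in common, and its sequence is shown for comparison with the miR-27 lines above.
hsa-miR-128: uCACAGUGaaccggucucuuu
miR-128, a miRNA best known from brain, had raw counts of 86 in Jurkat, 51 in Meg-01, 51 in U937, 48 in K562 and 35 in Raji. It was above background outside Raji.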

How the data were processed

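The deposited raw files hold, per the file headers, whole-number counts of each probe in 1 sample per line, for 753 probes. The value table the authors deposited holds a background-corrected signal, equal to the raw count less 1 constant per line, with values below 0 set to 0. That constant was the mean of the negative controls in Meg-01, Raji and U937, but 16.25 against a mean of 22.75 in Jurkat and 22.75 against 20.25 in K562. The signal was used only as an alternative. No normalization had been applied to the counts.

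Samples were grouped by cell line from the labels. As in the study's methods, scaling equalized the geometric means of the 100 human probes with the highest mean, 3 of which are members. The background threshold added 2 SD to the mean of the 8 negative controls. Intervals are exact Poisson, exact binomial (Clopper-Pearson) and conditional exact intervals at 95%, for counting error only. No test was possible with 1 sample per line, and whether other cultures would give the same values is unknown. Calls over 2-fold used counts floored at the threshold.

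All 5 members are named, with the 3 nearest patterns of each, miR-128 and the a and b pairs of smallest and largest spread. The members were taken by name, but the choice of these families, like that of the lists, was made with earlier results of these data known. Alternatives covered scaling, subtraction, threshold and filter. The computation (Python 3.11.15, numpy 2.4.6, scipy 1.17.1, pandas 2.3.3, matplotlib 3.10.9) was tested on simulated data. Sequences and coordinates come from RefSeq tables of GRCh38.p14, and the raw files name no build.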

Additional observations from a re-analysis of the deposited data

How the results depend on the processing

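Of the alternative values for the main comparisons, 58 moved little (counts by at most 1.5 times, other values within counting error), 25 moved further and 0 of these changed direction. Direction was not checked for counts, for ranges over all 5 lines or for miR-23a over miR-27a. The other comparisons set the highest line with signal against the lowest, so a change of direction was unlikely from the start. For single probes and lines 98 moved little and 102 further. Over all pairs of lines, 42 of the 60 folds of the members and their sum were beyond counting error, and 5 of these changed direction under another scaling. Beyond counting error these were miR-24 in Meg-01 over U937 (0.856 with the housekeeping probes), miR-27b in K562 over U937 (0.863 with the positive controls) and the sum in U937 over Meg-01 (0.841 without scaling). Within counting error they were miR-27b in U937 over Jurkat (0.921) and over Meg-01 (0.939), both without scaling. Of 110 alternative ratios within a line 6 crossed 1, all of the miR-23 sum over miR-24 in Jurkat or K562, where the interval had included 1. No paired analysis was possible because each line had 1 sample. The sum of the 5 probes, 3.79-fold higher in U937 than in Raji, became 5.73-fold without scaling, 7.38-fold with positive-control scaling and 7.75-fold with housekeeping scaling. It became 5.26-fold with the mean of the negative controls subtracted, 6.03-fold with the threshold subtracted, 6.12-fold with the highest negative control subtracted and 5.26-fold with the deposited signals. Members above background in Raji numbered 1, but 4 with the mean of the negative controls as the threshold and 2 with a minimum of 30 raw counts. On the log2 scale, the Jurkat over Meg-01 gap of the miR-27 sum over miR-24, 2.81, was 3.31 with the threshold and 3.27 with the highest negative control subtracted. The U937 over Jurkat gap of the miR-23 sum over the miR-27 sum, 2.12, was 2.55, 2.90 and 2.75 with the mean, the threshold and the highest negative control subtracted. The Jurkat over K562 gap of miR-23b over miR-27b, 1.06, was 1.73, 6.56 and 5.35 under the same subtractions and 2.16 with the deposited signals, since subtraction leaves few miR-23b counts. Chosen after seeing the data, the use of all 5 lines widened the range of the miR-23a share from 38.0 to 50.3 percentage points. It widened the log2 range of the miR-23 sum over miR-24 from 0.99 to 1.76, of the miR-27 sum over miR-24 to 4.23, of the miR-23 sum over the miR-27 sum to 2.77 and of miR-23a over miR-27a from 0.48 to 2.15, by adding values near background. Calls over 2-fold among human probes, 650, were 1658 with no filter and no floor, and 340 with Raji left out. The last, the call that needs the higher line above its own threshold, the patterns without Raji the folds of all pairs and the markers under each scaling, and the miR-23a to miR-23b ratio against Jurkat under each subtraction were also chosen after seeing the data. Counts near or below background limit what can be said of miR-23b outside Jurkat, of miR-27a in Jurkat, Raji and K562, and of miR-23a and miR-24 in Raji.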
